A study of Mus musculus with 32 samples.

Results

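The ADAMTS genes encode secreted metalloproteases that cut the matrix between cells. The 8 members described here are Adamts1, Adamts2, Adamts4, Adamts5, Adamts7, Adamts9, Adamts12 and Adamts15. They were taken by symbol from the 25700 genes in each count file, and all 8 were found and passed the low-count filter in every comparison. Expression was measured by RNA sequencing in 32 samples of mouse tendon assembloids, in which a core of tail tendon fascicles is embedded in a collagen-1 hydrogel.

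The mice carried the B6.129S2-Il6tm1Kopf/J line and were 12 to 15 weeks old and of both sexes. Cores came from Il-6+/+ (WT) or Il-6-/- (KO) animals and were cultured for 1 week. The study's co-culture medium held serum and macrophage-colony stimulating factor. The hydrogel was cell-free, or held progenitors, or held macrophages. The progenitors, which the study's text calls extrinsic fibroblasts, were plastic-adherent cells from wildtype Achilles tendons pooled from 6 mice. A core sample pooled explants of 1 mouse, and a hydrogel sample pooled 2 gels together with any cells that had left the core. The cores were WT cell-free, WT with progenitors, WT with macrophages, KO cell-free and KO with progenitors (n = 4 each). The progenitor hydrogels surrounded WT or KO cores (n = 6 each), so the seeded cells were wildtype in both. By the study's methods, all hydrogel pools but only 4 core pools per condition passed its checks of RNA integrity and concentration. The core samples are thus a part selected on RNA quality. The labels call the core's cells mixed tenocytes. The labels do not say whether replicates shared a batch of progenitors, so p-values measure the spread between these samples, which may be technical in part. In bulk RNA fewer cells of a type and less RNA per cell cannot be told apart.

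Il6, the gene altered in the KO line, did not separate the genotypes. It was at 1.84 to 12.5 CPM (library-size-scaled counts, with TMM factors over the 32 libraries) in WT cores and at 6.38 to 36.7 CPM in cores labelled KO. Counts per gene do not show which exons the reads came from, so the genotype is given as labelled throughout. In a separate experiment the study measured IL-6 protein in the supernatants of cell-free WT cores, cell-free KO cores and fibroblast hydrogels. It reported differences in level among them, and those values were not used here. The libraries held 20.4 to 59.9 M counts (median 30.6 M). The lowest count of a member in a sample was 92, for Adamts15, and the lowest of any other member was 382. Tendon and fibroblast markers were abundant in every group, and macrophage markers were abundant too, also where no macrophages had been added: their 12 genes summed to 9728 to 13407 CPM in WT cell-free cores and to 5048 to 12367 CPM in WT cores beside macrophages.

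ADAMTS proteases are made as inactive precursors and are activated when furin-like convertases remove the propeptide. They then bind matrix through thrombospondin repeats, are inhibited by TIMP3 where they cut aggrecan, and are taken up by cells through LRP1. Adamts1, Adamts4, Adamts5, Adamts9 and Adamts15 cut the large proteoglycans aggrecan and versican, and Adamts4 and Adamts5 are known as the main aggrecanases of cartilage and tendon. Adamts2 removes the amino-terminal propeptide of fibrillar procollagens. Adamts7 and Adamts12 carry a mucin domain and cut cartilage oligomeric matrix protein (COMP).

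Adamts1, Adamts5 and Adamts2 made up most of the members' expression. Per kilobase of the longest coding transcript (GENCODE M21), Adamts1 was at a mean of 79.4, Adamts5 at 60.5 and Adamts2 at 42.9 CPM per kb in WT cell-free cores, and the other 5 were at 3.3 (Adamts12) to 10.5 (Adamts7) CPM per kb. In the hydrogel around WT cores the order of levels per kilobase was different. Adamts1 was at 41.2, Adamts2 at 27.1 and Adamts4 at 21.7 CPM per kb, ahead of Adamts5 at 15.8 CPM per kb, and Adamts15 was last at 1.35 CPM per kb. Summed over the 8 members, the level was 1965 ± 242 CPM (SD, n = 4) in WT cores beside progenitors and 820 ± 72.4 CPM (SD, n = 6) in the hydrogel around them.

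**Figure D1:**
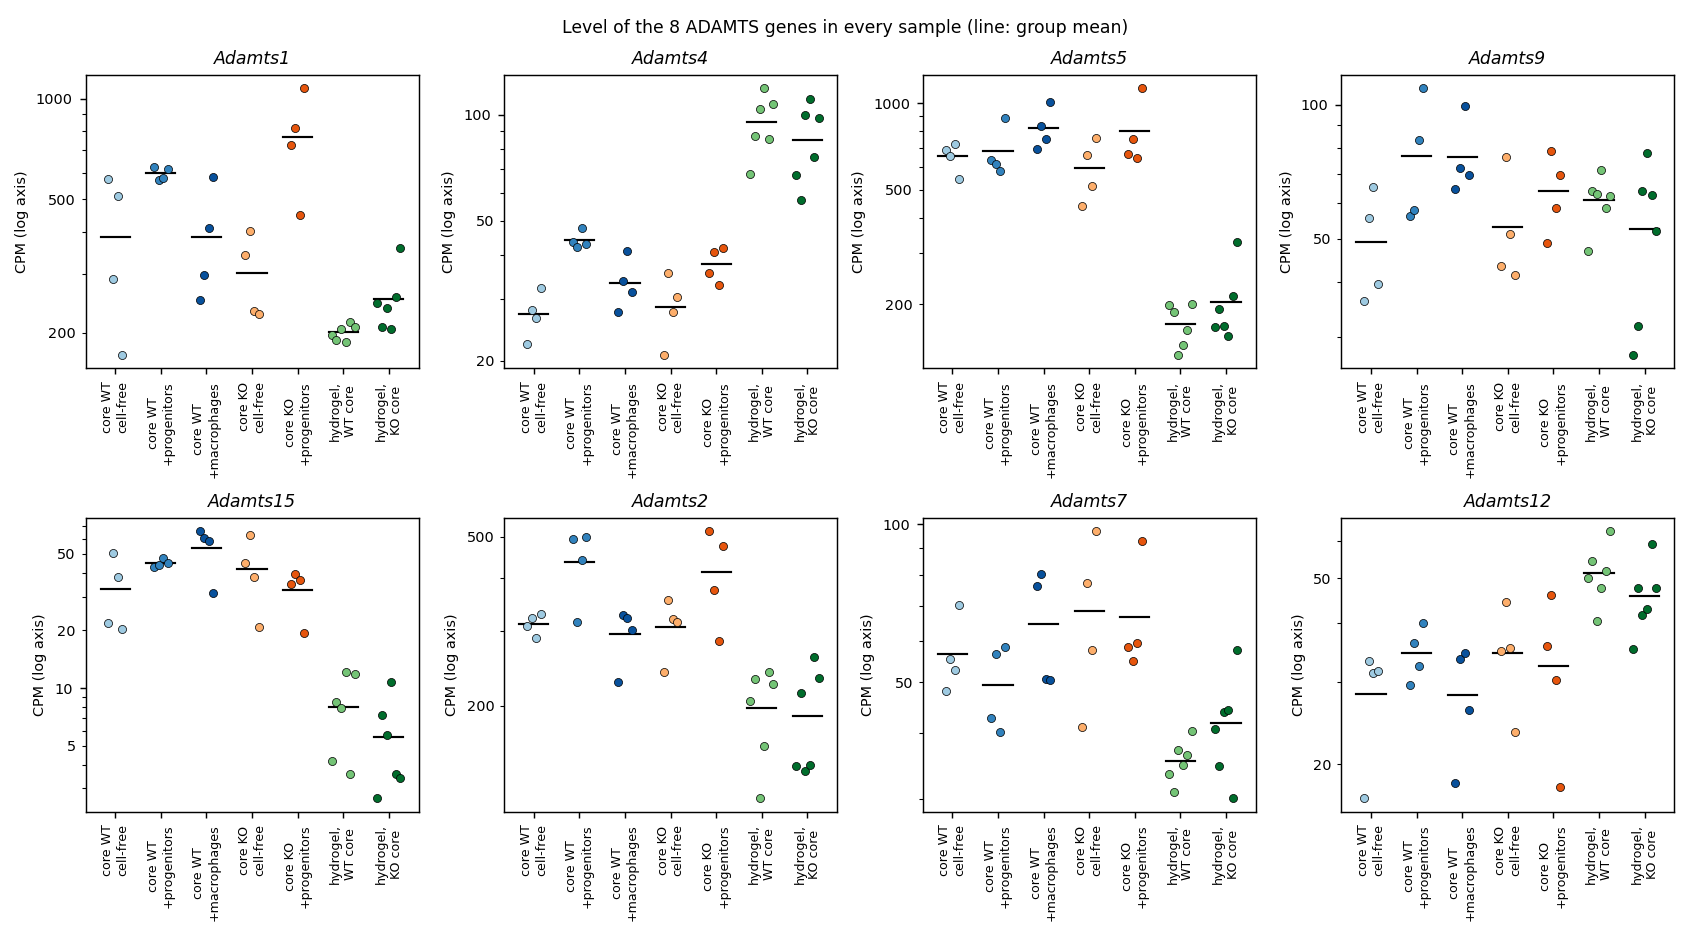
Level of each of the 8 genes in all 32 samples, by group, on a log axis of CPM (TMM-scaled), with a line at the group mean. The hydrogel samples lie below all core samples for Adamts5 (133 to 328 CPM against 439 to 1131 CPM) and Adamts15 (2.67 to 12.1 CPM against 19.3 to 65.7 CPM), and above all of them for Adamts4 (57.2 to 119 CPM against 20.8 to 47.7 CPM).

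The largest differences lay between the hydrogel and the core of the same assembloids. In WT assembloids 6 of the 8 members were called (Benjamini-Hochberg adjusted p below 0.05 in edgeR and a log2 fold change beyond 0.5), 5 of them lower in the hydrogel and 1 higher. Over all 16037 genes tested 42.8% were called, 24.7% lower and 18.1% higher. In assembloids with a core labelled KO again 6 of 8 were called, 5 lower and 1 higher, where 41.6% of all genes were called, 24.6% lower and 17.0% higher. Both comparisons use cores beside progenitors that also enter later ones. The members' median log2 fold change was -0.89 in WT and -1.01 in labelled KO assembloids, and that of all genes was -0.00078 and -0.0015.

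Adamts5, an aggrecanase, was at 635, 616, 580 and 890 CPM in the 4 WT cores beside progenitors. In the 6 hydrogels around WT cores its lowest value was 133, its median 175 and its highest 200 CPM, so the compartments did not overlap. It was lower in the hydrogel by a log2 fold change of -2.08 ± 0.15 (SE, adjusted p = 7.29e-07) in WT and -2.09 ± 0.22 (adjusted p = 5.06e-05) in labelled KO assembloids.

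Adamts1, which cuts versican and aggrecan, lies next to Adamts5 on chromosome 16. It was at 626, 573, 579 and 615 CPM in WT cores beside progenitors and at 188 to 216 CPM in the 6 hydrogels around them. In these WT assembloids the values within each compartment were tight and far apart. In labelled KO assembloids they spread more, at 448 to 1076 CPM in cores and 206 to 359 CPM in hydrogels. The log2 fold change of Adamts1 was -1.66 ± 0.065 (adjusted p = 2.93e-08) in WT and -1.72 ± 0.22 (adjusted p = 0.000119) in labelled KO assembloids.

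Adamts15, another versican-cutting member, had the largest fold of the 8. It was at 42.8, 43.8, 47.8 and 44.7 CPM in WT cores beside progenitors, and at a median of 8.15 CPM, between 3.57 and 12.1 CPM, in the hydrogels around them. The log2 fold change was -2.56 ± 0.29 (adjusted p = 1.17e-05) in WT and -2.66 ± 0.38 (adjusted p = 0.000231) in labelled KO assembloids. Its neighbour on chromosome 9, Adamts8, was far scarcer but was called lower too, with a mean of 0.155 CPM in the WT hydrogel and 0.663 CPM in the core.

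Adamts4, the other main aggrecanase, went the opposite way. It was at 43.6, 42.2, 47.7 and 43.0 CPM in WT cores beside progenitors and at 67.8 to 119 CPM in the hydrogels around them, with no overlap. It was higher in the hydrogel by a log2 fold change of 1.02 ± 0.13 (adjusted p = 3.04e-05) in WT and 1.05 ± 0.18 (adjusted p = 0.000650) in labelled KO assembloids. Within the 3 codes that the sample titles carry, the WT differences were 0.82, 1.31 and 1.15 in log2 CPM.

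Adamts2, the procollagen N-proteinase, was at 494, 314, 440 and 499 CPM in WT cores beside progenitors and at 121 to 240 CPM in the hydrogels. Here too all hydrogels were below all cores, and the log2 fold change was -1.23 ± 0.19 (adjusted p = 0.000126) in WT and -1.24 ± 0.21 (adjusted p = 0.000650) in labelled KO assembloids. Of the COMP-cutting pair, Adamts7 was called lower in the hydrogel, with WT means of 35.5 ± 3.27 CPM in hydrogels (SD, n = 6) and 49.5 ± 9.27 CPM in cores (SD, n = 4), although its compartments overlapped. In labelled KO assembloids it was called too (-0.78 ± 0.19, adjusted p = 0.00571). Its WT log2 fold change of -0.56 ± 0.11 (adjusted p = 0.000929) came to -0.47 and -0.46 without the WT core beside progenitors of replicate 2 or 4 and to -0.49 without the low-count filter, each short of the fold threshold.

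Adamts12, its partner in that pair, was the only other member with a higher hydrogel level in both genotypes. It was at 29.5, 36.4, 32.4 and 40.0 CPM in WT cores beside progenitors and at 40.5 to 63.0 CPM in the hydrogels, which did not overlap. The WT log2 fold change of 0.49 ± 0.12 passed the adjusted p (0.00308) but not the fold threshold, and in labelled KO assembloids it was 0.37 ± 0.22 (adjusted p = 0.176). Adamts9, which cuts versican during development, was not called in either genotype: its log2 fold change was -0.41 ± 0.17 (adjusted p = 0.0524) in WT and -0.41 ± 0.27 (adjusted p = 0.224) in labelled KO assembloids. Leaving out a single sample changed some of these calls. Adamts12 was called in WT without replicate 2 or 4 of the cores beside progenitors or replicate 3 or 4 of the hydrogels (0.53 to 0.57), and also without the low-count filter (0.56, adjusted p = 0.000734). Adamts9 was called in WT without replicate 1 (-0.53, adjusted p = 0.0180) or replicate 2 (-0.51, adjusted p = 0.0213) of the cores beside progenitors. Adamts12 was called in labelled KO assembloids without replicate 2 of those cores (0.59, adjusted p = 0.0411).

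**Figure D2:**
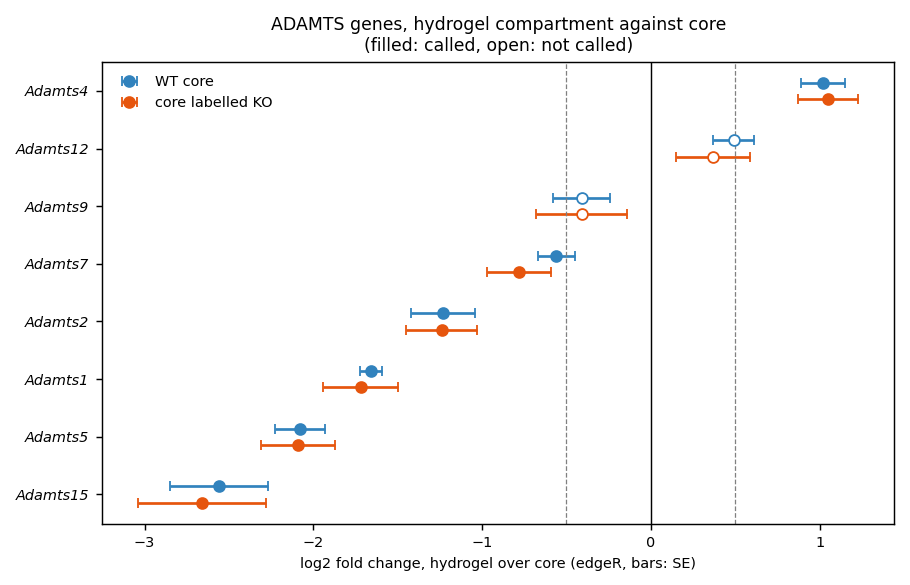
log2 fold change of each gene between hydrogel and core (x axis, bars are the standard error) in assembloids with a WT core (blue) or a core labelled KO (orange), with filled points for called genes and dashed lines at the fold threshold of 0.5. The genes run from Adamts15 at -2.56 and -2.66 to Adamts4 at 1.02 and 1.05, and only Adamts9 and Adamts12 have open points.

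Counted by overlap of the samples' CPM, 6 of 8 members did not overlap between the compartments in WT assembloids (56.8% of all genes) and 5 of 8 in labelled KO assembloids (45.1% of all genes). For each of these the exact two-sided permutation test of log2 CPM gave p = 0.00476. This is the smallest that 6 against 4 can give, so it adds little to the absence of overlap. Markers of other cells also differed between the compartments. In WT assembloids 6 of 8 tendon markers and 4 of 7 fibroblast markers were called lower in the hydrogel, while 7 of 12 macrophage, 4 of 7 smooth muscle and pericyte, and 5 of the 6 Schwann cell markers tested were called higher. Of the 5 cartilage markers tested, 3 were higher and 2 lower. In labelled KO assembloids 0 of 12 macrophage markers were called, 3 of 8 tendon and 3 of 7 fibroblast markers were lower, and 5 of 6 Schwann and 3 of 7 smooth muscle and pericyte markers were higher. In WT assembloids the summed macrophage markers ranged from 10300 to 18747 CPM in the hydrogels and from 9168 to 9974 CPM in the cores, and the summed Schwann markers from 87.0 to 159 CPM and from 37.9 to 41.8 CPM. The part of these cells in the members' differences was not tested.

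Promoter sequences (RefSeq, GRCm38.p6, 250 bases before to 50 after the start) were at hand for 4 members, Adamts1, Adamts2, Adamts9 and Adamts12. All 4 are shown, of which Adamts1 and Adamts2 were called lower in the hydrogel. Capitals mark matches on either strand to the GC box (GGGCGG), the TATA box (TATAAA) and NF-kB.
Adamts1, chr16:85803064-85803363, minus strand: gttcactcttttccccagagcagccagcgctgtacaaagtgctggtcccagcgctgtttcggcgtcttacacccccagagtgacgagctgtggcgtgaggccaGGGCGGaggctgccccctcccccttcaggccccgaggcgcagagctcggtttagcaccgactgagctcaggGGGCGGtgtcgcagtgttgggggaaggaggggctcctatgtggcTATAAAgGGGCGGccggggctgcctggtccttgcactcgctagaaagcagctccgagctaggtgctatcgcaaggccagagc
Adamts2, chr11:50601835-50602134, plus strand: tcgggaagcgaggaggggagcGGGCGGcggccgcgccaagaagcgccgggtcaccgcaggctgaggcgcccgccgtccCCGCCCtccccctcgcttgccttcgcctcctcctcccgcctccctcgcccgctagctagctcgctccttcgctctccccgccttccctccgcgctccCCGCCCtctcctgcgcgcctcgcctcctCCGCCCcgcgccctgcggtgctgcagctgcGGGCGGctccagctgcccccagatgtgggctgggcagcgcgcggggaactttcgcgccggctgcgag
Adamts9, chr6:92943485-92943784, minus strand: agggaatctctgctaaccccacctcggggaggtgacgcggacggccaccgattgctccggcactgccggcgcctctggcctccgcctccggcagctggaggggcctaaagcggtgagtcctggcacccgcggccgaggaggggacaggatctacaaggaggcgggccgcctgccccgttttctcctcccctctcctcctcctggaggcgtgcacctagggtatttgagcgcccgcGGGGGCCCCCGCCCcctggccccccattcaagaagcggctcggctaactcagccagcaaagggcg
Adamts12, chr15:11064523-11064822, plus strand: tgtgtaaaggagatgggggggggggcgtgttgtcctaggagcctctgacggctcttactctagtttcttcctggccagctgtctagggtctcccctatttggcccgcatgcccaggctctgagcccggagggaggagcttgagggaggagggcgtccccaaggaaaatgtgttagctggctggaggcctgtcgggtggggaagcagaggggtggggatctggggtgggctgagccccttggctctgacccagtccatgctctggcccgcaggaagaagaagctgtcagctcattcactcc
The Adamts1 window held a TATA box from -32 to -27 relative to the start and 3 GC boxes, and the Adamts2 window held 5 GC boxes and no TATA box. The Adamts9 window held 1 GC box, which overlapped an NF-kB match, and the Adamts12 window held neither. None of the 4 windows held AP-1 (TGANTCA), CRE (TGACGTCA), STAT (TTCNNNGAA), E-box (CACGTG) or CCAAT matches on either strand, so GC boxes were in both called members and in 1 of the other 2. Of all 32851 promoter windows in the table, 13.6% held the TATA box and 35.7% the GC box, and AP-1, CRE, STAT, NF-kB, E-box and CCAAT motifs were in 7.81%, 1.79%, 8.3%, 8.46%, 7.15% and 37.4%. GC content was 64.7% for Adamts1, 77.3% for Adamts2, 70.0% for Adamts9 and 62.0% for Adamts12, against a median of 52.7% over all windows. A match is a run of letters and not a measured binding site.

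Genes around the members differed between the compartments as well. Of the 8 other ADAMTS genes tested, 6 were called lower and 1 higher in the WT hydrogel, and 5 lower and 1 higher in labelled KO assembloids. Adamts6, a protease of the microfibril group, averaged 8.86 ± 1.74 CPM in WT hydrogels (SD, n = 6) and 45.6 ± 3.90 CPM in their cores (SD, n = 4), with a log2 fold change of -2.45 ± 0.13 (adjusted p = 9.63e-08). Adamts10 (-1.06 ± 0.093) and Adamts20 (-3.18 ± 0.39) were lower too. The exception, named after its values were seen, was Adamts17 at 0.87 ± 0.28 (adjusted p = 0.0160). Adamts13 and Adamts18 were under the count filter. Of the 6 ADAMTS-like genes, which lack a protease domain, Adamtsl4 was called higher (0.93 ± 0.12, adjusted p = 2.73e-05) and Adamtsl2 and Papln lower in WT assembloids.

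Among the 15 inhibitor, clearance and activation genes, 3 were called higher and 6 lower in the WT hydrogel. Timp1, a broad metalloprotease inhibitor with little effect on ADAMTS proteases, averaged 1041 ± 54.6 CPM in hydrogels (SD, n = 6) and 335 ± 23.3 CPM in cores (SD, n = 4), with a log2 difference of 1.55 ± 0.079 (adjusted p = 9.42e-08). Fbln1, whose product fibulin-1 is a cofactor of ADAMTS1, was lower by a log2 fold change of -1.92 ± 0.15 (adjusted p = 1.28e-06). The convertase Pcsk6 (-1.69 ± 0.19) and the membrane inhibitor Reck (-0.69 ± 0.084) were also called lower. In labelled KO assembloids 3 genes of this list were called higher and 5 lower.

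The proteoglycans and hyaluronan genes that these proteases meet split evenly: 4 of 12 were called higher and 4 lower in the WT hydrogel, with 4 and 3 in labelled KO assembloids. Has2, a hyaluronan synthase, averaged 83.9 ± 10.3 CPM in hydrogels (SD, n = 6) and 6.63 ± 0.422 CPM in cores (SD, n = 4), with a log2 difference of 3.58 ± 0.11 (adjusted p = 5.48e-09). Aggrecan (Acan, 3.08 ± 0.37), versican (Vcan, 1.69 ± 0.23) and the link protein Hapln1 (2.74 ± 0.15) were higher as well. So the transcripts of the main substrates of Adamts1, Adamts4 and Adamts5 were higher in the hydrogel, where Adamts4 was higher and Adamts1 and Adamts5 were lower. Of the 10 procollagen and procollagen-processing genes tested, 4 were called higher and 1 lower in the WT hydrogel. The C-proteinase Tll1 (1.17 ± 0.12) and Col5a1 (0.74 ± 0.15) were among those higher, while Adamts2, which cuts the other end of the procollagen, was lower.

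**Figure D3:**
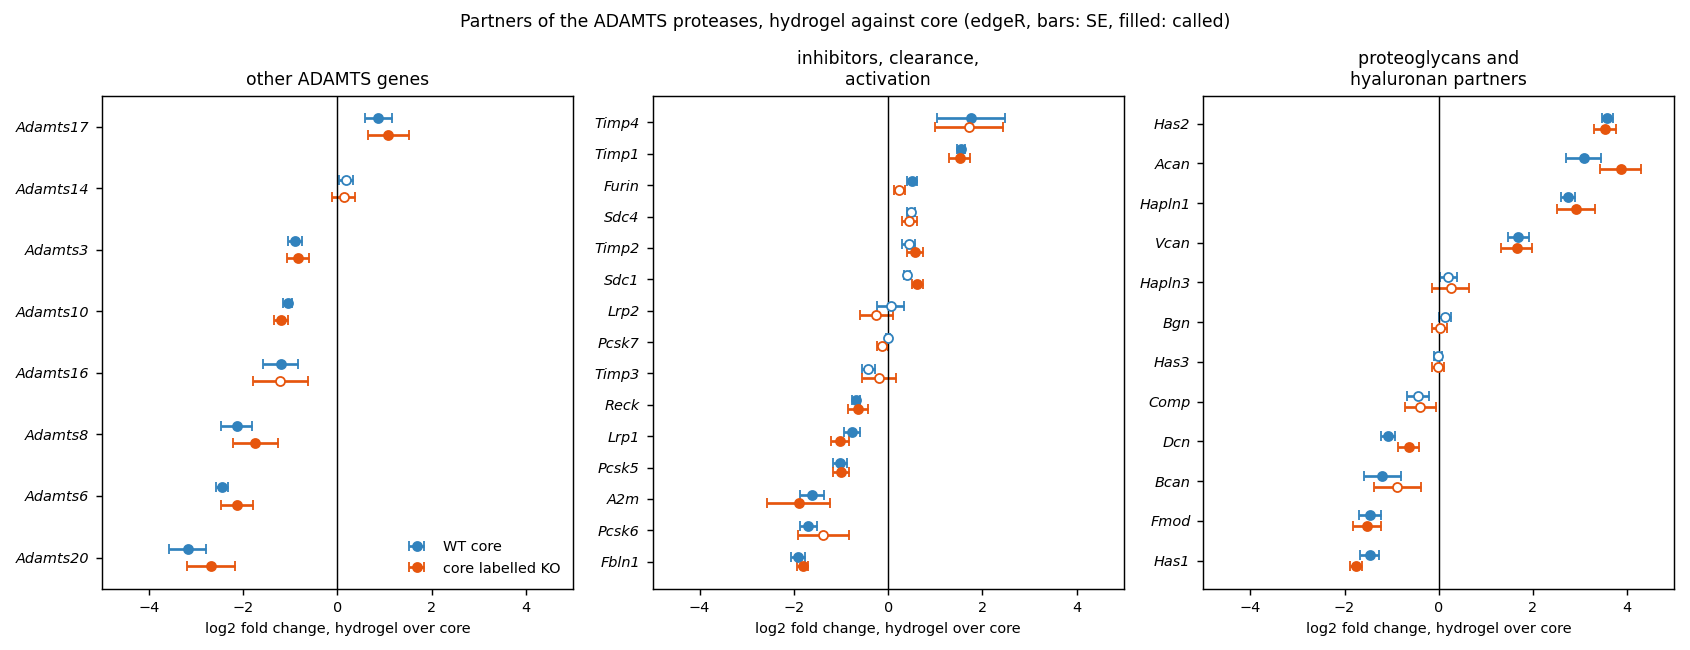
log2 fold change between hydrogel and core (x axis, bars are the standard error) of the other ADAMTS genes, of inhibitor, clearance and activation genes, and of proteoglycan and hyaluronan genes, in assembloids with a WT core (blue) or a core labelled KO (orange), with filled points for called genes. Most other ADAMTS genes lie left of 0, down to Adamts20 at -3.18, and Has2, Acan, Hapln1 and Vcan lie on the right, up to 3.58 in WT assembloids.

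The next question was whether progenitors in the hydrogel altered the members in the core. In WT cores 1 of 8 was called, where 2.61% of all genes were called. That gene was Adamts4, at 22.4, 27.8, 26.5 and 32.3 CPM in cell-free cores and at 43.6, 42.2, 47.7 and 43.0 CPM beside progenitors. Every core beside progenitors was above every cell-free core, and no other member's groups were free of overlap. Over all genes, 12.3% did not overlap in one direction or the other. Its log2 fold change was 0.67 ± 0.095 (adjusted p = 0.0110), its means were 27.3 ± 4.11 and 44.1 ± 2.48 CPM (SD, n = 4 each), and the exact two-sided permutation test gave p = 0.0286, the smallest that 4 against 4 can give.

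Within the 3 title codes Adamts4 was higher beside progenitors by 0.96, 0.72 and 0.41 in log2 CPM. Its call rested on few libraries: the adjusted p was 0.0516 without replicate 1 and 0.0507 without replicate 3 of the cores beside progenitors, while the log2 fold change stayed between 0.59 and 0.76 over all single omissions. Among markers in the same comparison, 2 of 7 fibroblast, 1 of 8 tendon and 2 of the 5 cartilage markers tested were called higher, and 1 of 12 macrophage markers lower. The summed fibroblast markers were at 9298 to 14283 CPM in cell-free cores and at 13532 to 20112 CPM beside progenitors. The part of these cells in the Adamts4 difference was not tested.

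The other members of the WT comparison did not pass. Adamts1 was at 577, 289, 512 and 172 CPM in cell-free cores and at 626, 573, 579 and 615 CPM beside progenitors. The cell-free cores varied by a factor of 3.36 and the others hardly at all, and the log2 fold change of 0.59 ± 0.32 had an adjusted p of 0.321. Adamts2 (0.46 ± 0.14, adjusted p = 0.0866) and Adamts9 (0.61 ± 0.25, adjusted p = 0.194) lay on the same side, and Adamts2 was called without replicate 2 of the cores beside progenitors (0.59, adjusted p = 0.0140). For Adamts5 the log2 fold change was 0.033, with a 95% interval from -0.28 to 0.34.

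In cores labelled KO no member was called by edgeR when progenitors were added (0 of 8, with 0.432% of all genes called), and 2 had an unadjusted p below 0.05, as had 11.7% of all genes. Adamts1 came closest. It was at 342, 403, 233 and 228 CPM in cell-free cores and at 729, 818, 448 and 1076 CPM beside progenitors, so the groups did not overlap, as was the case for 6.28% of all genes. The log2 fold change was 1.34 ± 0.28 with an adjusted p of 0.0762. The exact two-sided permutation test gave p = 0.0286, which groups of 4 without overlap always give. Differences between same-numbered cores ran from 0.94 to 2.24 in log2 CPM. With the replicate number as a block, Adamts1 was called (1.31 ± 0.23, adjusted p = 0.0221), as it was by DESeq2 (adjusted p = 0.000187). It was also called without cell-free replicate 2 (adjusted p = 0.0255) or without replicate 3 beside progenitors (adjusted p = 0.0355).

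Adamts4 had a log2 fold change of 0.39 ± 0.17 (adjusted p = 0.405) in these cores and was likewise higher in 4 of 4 pairs. Adamts15 was lower in 4 of 4 pairs of cores labelled KO, with a log2 fold change of -0.37 ± 0.32 (adjusted p = 0.726). In WT cores its log2 fold change was 0.42 ± 0.26 (adjusted p = 0.388). The difference between the genotypes in the progenitor response was tested as an interaction over the 16 cores concerned. No member and no gene of 16772 passed the adjusted p there in edgeR, and 3.01% of all genes and 0 of 8 members had an unadjusted p below 0.05. The interaction was 0.74 ± 0.46 for Adamts1 and -0.80 ± 0.45 for Adamts15 (adjusted p = 0.985 for both), and -0.28 ± 0.20 for Adamts4. DESeq2 called 0 members as well. With the replicate number as a block in edgeR, the interaction for Adamts15 was -0.88 ± 0.31 (unadjusted p = 0.0145, adjusted p = 0.939).

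**Figure D4:**
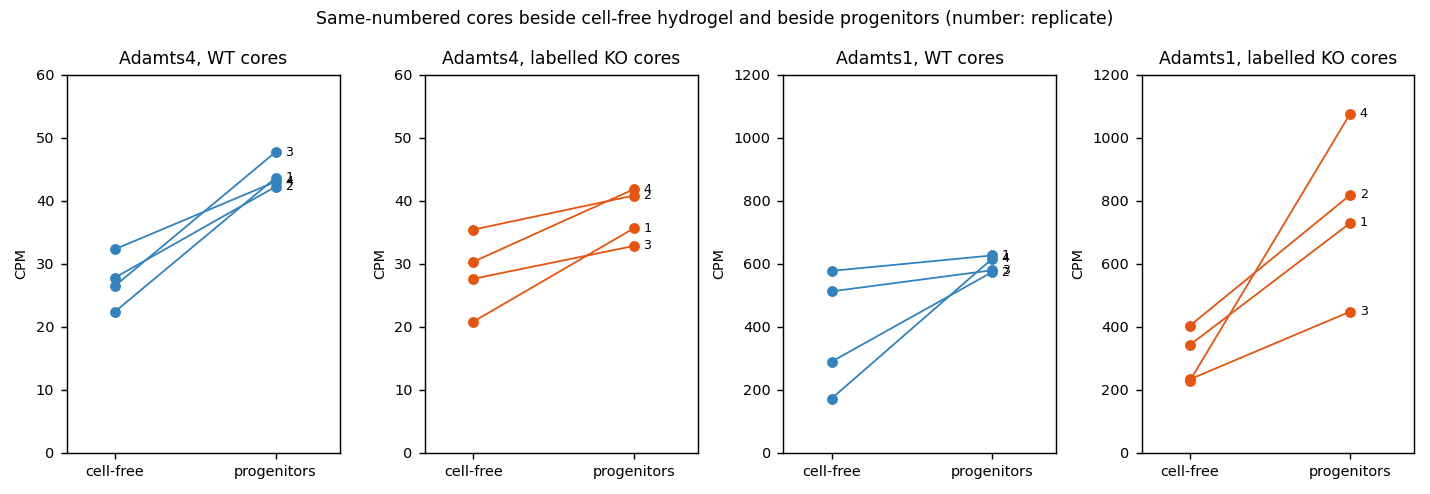
CPM of Adamts4 and Adamts1 (y axis from 0) in cores beside a cell-free hydrogel and beside progenitors, for WT cores (blue) and cores labelled KO (orange). Lines join samples that carry the same replicate number, which was not taken as a pairing for these WT cores. All 16 lines go up, as they must where the groups do not overlap, from 22.4 to 32.3 CPM to 42.2 to 47.7 CPM for Adamts4 in WT cores and from 228 to 403 CPM to 448 to 1076 CPM for Adamts1 in cores labelled KO.

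Partners of the members in these comparisons were few. In WT cores beside progenitors, Acan rose by 2.89 ± 0.52 on the log2 scale (adjusted p = 0.0223), from a mean of 0.998 ± 0.566 to 7.38 ± 4.24 CPM (SD over 4 cores), and it was the 1 called gene of 12 proteoglycan and hyaluronan genes. Sdc1, which encodes the surface proteoglycan syndecan-1, rose by 0.92 ± 0.080 (adjusted p = 0.00260) in WT cores and by 0.69 ± 0.11 (adjusted p = 0.0337) in cores labelled KO. The protease-trapping A2m (2.14 ± 0.33), Col3a1 (1.09 ± 0.21), Col5a1 (0.75 ± 0.14) and Adamtsl2 (1.35 ± 0.32) were the other called genes in WT cores. None of the 8 other ADAMTS genes tested was called in either genotype.

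Genotype was compared in 3 settings. For cores beside progenitors and for hydrogels a gene was called at an unadjusted p below 0.05 and a log2 fold change beyond 0.5, the rule of the study's methods. No gene passed the adjusted p in either. Beside progenitors 0 of 8 members were called in the core by edgeR or DESeq2, with 2.44% of all genes called by edgeR. Adamts4 was at 35.6, 40.8, 32.8 and 41.8 CPM in cores labelled KO and at 42.2 to 47.7 CPM in WT cores, and Adamts15 was at 34.8, 39.1, 36.8 and 19.3 CPM and at 42.8 to 47.8 CPM. Both were lower in every core labelled KO than in any WT core, against 4.63% of all genes whose groups did not overlap.

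Their log2 fold changes were small, at -0.21 ± 0.083 for Adamts4 and -0.44 ± 0.17 for Adamts15 (adjusted p = 0.546 for both). Adamts7 was at 0.44 ± 0.18 (adjusted p = 0.555), on the other side. These 3 were the members with an unadjusted p below 0.05, against 8.88% of all genes. Single omissions moved Adamts7 between 0.24 and 0.53 and Adamts15 between -0.54 and -0.26, across the fold threshold. Adamts7 was called without replicate 1 or 2 of the labelled KO cores or replicate 2 or 4 of the WT cores, Adamts15 without replicate 2 or 3 of the labelled KO cores, and Adamts1 without replicate 3 (0.56, adjusted p = 0.450). The cartilage markers moved with this comparison, with 4 of the 5 tested called lower in cores labelled KO, Acan among them (-1.34 ± 0.48), and summed levels of 78.6 to 124 CPM against 93.4 to 241 CPM in WT cores.

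In cell-free cores 0 of 8 members and 0% of all 16065 genes were called by the adjusted p, and 2.11% of all genes but none of the members had an unadjusted p below 0.05. DESeq2 likewise called 0 of the members. The 8 log2 fold changes lay between -0.38 ± 0.37 for Adamts1 and 0.35 ± 0.38 for Adamts15. For Adamts2 the 95% interval ran from -0.30 to 0.25.

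In hydrogels 0 of 8 members were called between labelled KO and WT cores, with 0.755% of all genes called. DESeq2 called 0 too, and no member's groups were free of overlap (0.158% of all genes were). Adamts1, the 1 member with an unadjusted p below 0.05 (2.65% of all genes), was at 197, 191, 205, 188, 216 and 209 CPM around WT cores and at 245, 208, 237, 206, 256 and 359 CPM around cores labelled KO. The groups overlapped, but 6 of 6 same-numbered pairs were higher. The log2 fold change was 0.29 ± 0.12 (adjusted p = 1.00), the exact two-sided permutation test gave p = 0.0152, and the log2 fold change was 0.18 without labelled KO replicate 6.

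Adamts4 was lower in 6 of 6 pairs, by a log2 fold change of -0.19 ± 0.17 (adjusted p = 1.00). Adamts15 had a median of 8.15 CPM, between 3.57 and 12.1 CPM, around WT cores and of 4.64 CPM, between 2.67 and 10.7 CPM, around cores labelled KO, so the groups overlapped. Its log2 fold change was -0.55 ± 0.39 (adjusted p = 1.00), and it was called with the replicate number as a block (-0.57 ± 0.23, adjusted p = 0.858) and without labelled KO replicate 4 (-0.85). The summed macrophage markers ranged from 2430 CPM in labelled KO replicate 5 to 32456 CPM in replicate 1, a wider span than the 10300 to 18747 CPM around WT cores, and their part in these values was not tested.

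Macrophages in the hydrogel were compared with a cell-free hydrogel in WT cores. No member was called (0 of 8, with 4.60% of all genes called), and none was free of overlap, as 14.3% of all genes were. At an unadjusted p below 0.05 there were 4 members and 22.4% of all genes. Adamts9 was at 36.3, 55.5, 65.4 and 39.6 CPM in cell-free cores and at 64.7, 72.0, 99.2 and 69.4 CPM beside macrophages, higher in 4 of 4 pairs. The log2 fold change was 0.67 ± 0.20 with an adjusted p of 0.0943. It was called with the replicate number as a block (0.69 ± 0.10, adjusted p = 0.0100), by DESeq2 (adjusted p = 0.0255) and without cell-free replicate 3 (0.84, adjusted p = 0.0366).

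Adamts15 averaged 32.7 ± 14.4 CPM in cell-free cores and 53.9 ± 15.5 CPM beside macrophages, with a log2 fold change of 0.76 ± 0.32 (adjusted p = 0.197). Adamts5 averaged 653 ± 75.3 and 822 ± 137 CPM, with 0.36 ± 0.15 (adjusted p = 0.198). The SD is over 4 cores in each case. Both were higher in 4 of 4 pairs. For Adamts1 the 95% interval of -0.72 to 0.76 left the direction unresolved. Of the 9 other ADAMTS genes tested 1, Adamts6, was called higher (0.57 ± 0.14, adjusted p = 0.0469), and Adamtsl5 was called lower (-0.59 ± 0.15, adjusted p = 0.0469). Macrophage markers were not higher in the cores beside macrophages: 1 of 12 was called lower and none higher.

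Beside macrophages rather than progenitors, 0 of 8 members were called in WT cores by edgeR or DESeq2, with 10.8% of all genes called by edgeR. At an unadjusted p below 0.05 there were 4 members and 38.5% of all genes. Adamts1 (-0.56 ± 0.22, adjusted p = 0.0935), Adamts2 (-0.50 ± 0.16, adjusted p = 0.0541) and Adamts4 (-0.32 ± 0.11, adjusted p = 0.0612) had lower means beside macrophages, and Adamts5 (0.35 ± 0.17, adjusted p = 0.151) and Adamts7 (0.46 ± 0.19, adjusted p = 0.0965) had higher ones. Adamts4 was at 27.5, 33.6, 41.0 and 31.4 CPM beside macrophages, below all cores beside progenitors. It was the 1 member without overlap, against 27.9% of all genes.

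With the replicate number as a block Adamts1 was called (-0.63 ± 0.19, adjusted p = 0.0482). Without macrophage replicate 4, Adamts1 (-0.82, adjusted p = 0.00907), Adamts7 (0.57, adjusted p = 0.0403) and Adamts15 (0.54, adjusted p = 0.00315) were called, and without replicate 2 beside progenitors Adamts2 was. Of the partners, 4 of 12 proteoglycan and hyaluronan genes were called lower beside macrophages, among them Acan (-3.32 ± 0.47), Vcan (-1.41 ± 0.22) and Has2 (-1.33 ± 0.26), and so were Timp1 (-1.32 ± 0.21) and Sdc1 (-0.96 ± 0.14) of the inhibitor list. Cell markers moved as well, with 2 of 7 fibroblast, 2 of the 5 tested cartilage and 1 of 8 tendon markers called lower beside macrophages, 2 of 7 smooth muscle and pericyte markers lower and 1 higher, and 1 of 12 macrophage markers in each direction. The summed fibroblast markers were at 6009 to 17406 CPM beside macrophages and at 13532 to 20112 CPM beside progenitors, and the summed cartilage markers, Acan among them, at 85.6 to 175 CPM and at 93.4 to 241 CPM. The part of these cells in the differences was not tested.

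**Figure D5:**
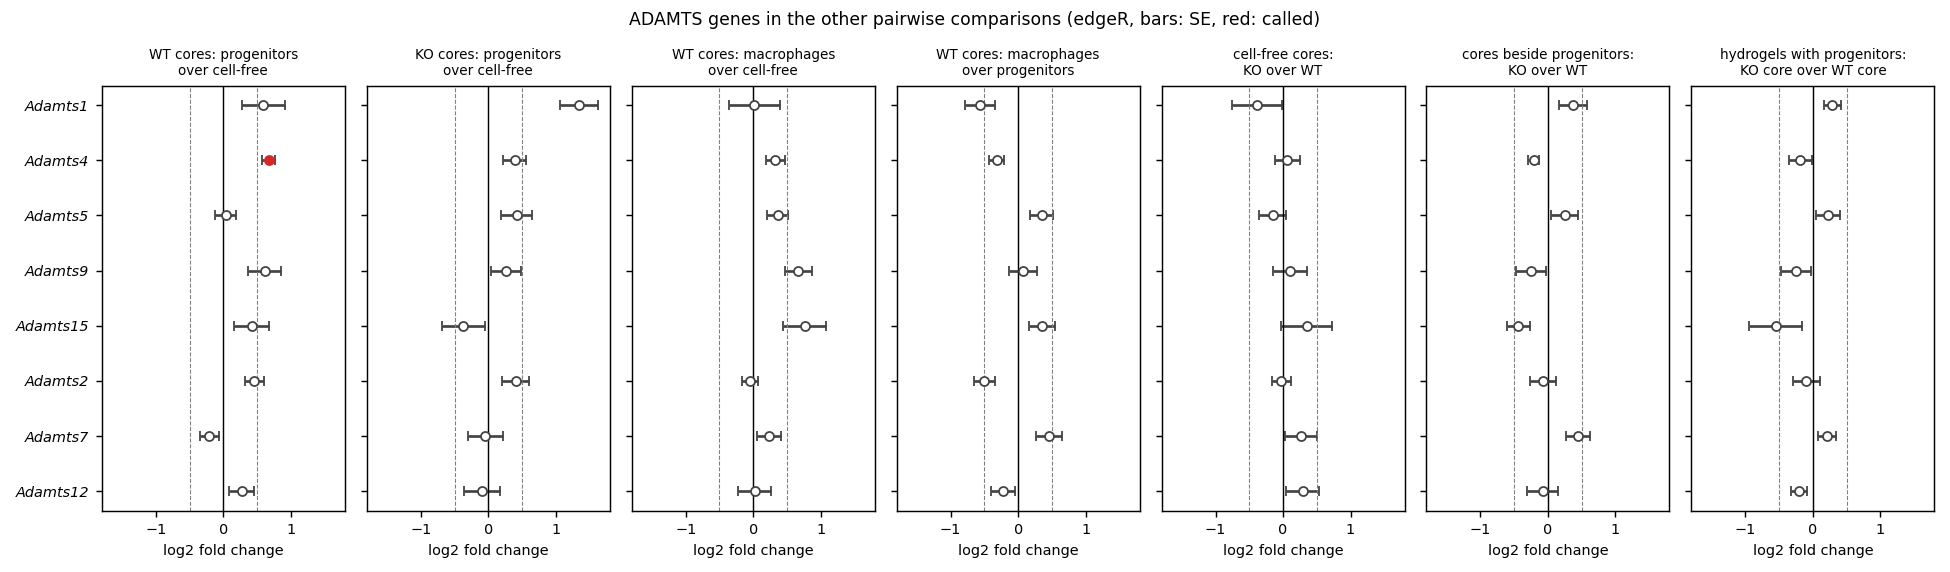
log2 fold change (x axis, bars are the standard error) of the 8 genes in the 7 comparisons within a compartment, with dashed lines at the fold threshold of 0.5 and a red point for a called gene. Adamts4 in WT cores beside progenitors, at 0.67, is the only red point, and Adamts1 in cores labelled KO beside progenitors lies farthest from 0, at 1.34.

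Across the 7 groups the order of the mean levels was broken by few gaps. Adamts4 formed 3 blocks that did not overlap, the hydrogels at means of 84.9 and 95.1 CPM, the WT cores beside progenitors at 44.1 CPM, and the other cores at 27.3 to 37.7 CPM. Adamts5 and Adamts15 each had 1 gap, between the cores and the hydrogels. For Adamts1, Adamts2, Adamts7, Adamts9 and Adamts12 each group overlapped the next in order. Adamts9 was the least ordered, with WT cores beside progenitors (76.5 CPM) and beside macrophages (76.3 CPM) at the top and WT cell-free cores (49.2 CPM) at the bottom.

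The genes with the pattern most like each member's were sought among 11997 genes by Pearson's r of log2 CPM over the 32 samples, which share mice and fall into the 2 compartments, so r is also given over the 20 cores. Adamts4 was most like Gpc1, a glypican, and Chsy1, which builds chondroitin sulfate (r = 0.97 for both, 0.84 and 0.89 in cores). Adamts5 was most like Eya2 and Fbln1 (r = 0.97 for both, 0.79 and 0.66 in cores), and Adamts1 like Rnf122 and the growth factor Igf1 (r = 0.91 for both, 0.95 and 0.91 in cores). Adamts2 was most like Tmem132e (r = 0.94, 0.87 in cores) and Fndc1 (0.93, 0.79 in cores). Adamts15 was most like Ppl and Snx32 (0.93 for both, 0.83 and 0.85 in cores). For Adamts12 they were Col14a1 (0.90, 0.77 in cores) and Cd248 (0.87, 0.80 in cores). For Adamts7 they were Rffl (0.89, 0.80 in cores) and Usp53 (0.85, 0.77 in cores). For Adamts9 they were Syt12 (0.88, 0.86 in cores) and Dmtn (0.79, 0.76 in cores). No member was among these genes for another.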

How the data were processed

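The libraries were made from ribosome-depleted total RNA with a stranded kit. The authors quantified reads with kallisto (0.46.1, per the submitters' processing notes) against GRCm39, with an annotation release not given in the sources used here, and deposited estimated counts per gene as whole numbers. Each file held 25700 genes, of which 25587 had a symbol in GENCODE M21, and totals were 20.4 to 59.9 M counts.

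Differences were tested on these counts with edgeR 4.0.16 in R 4.3.3 (TMM factors, filterByExpr, quasi-likelihood F test, Benjamini-Hochberg adjustment over all genes tested), with only the compared groups in each fit. Each SE was taken as the absolute log2 fold change over the root of F. Each 95% interval used this SE with a normal multiplier, so with these few samples it is narrower than the F test allows. CPM values were scaled by TMM over all 32 libraries, and exact permutation tests were two-sided on log2 CPM with a prior count of 2. DESeq2 1.42.0 was an alternative. The fit was tested on simulated counts. The members, the gene lists and the tests were chosen with earlier results of these data known. The text names the 8 members, up to 4 genes of each list with the lowest p per comparison, the 2 most correlated genes per member, and Il6.

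Same-numbered samples deviated together (every correlation of deviations over 0.1, between 0.13 and 0.53) in the hydrogels, in cores labelled KO with and without progenitors, and in the 2 macrophage comparisons, so these numbers were taken as pairs. Hydrogels and cores were matched by the code and number in their titles, which gave 4 pairs per genotype and left 2 of 6 hydrogels without a core. These pairs deviated together too. Pairs entered only the counts of paired differences and the fits with a block. The main fits and the exact permutation tests treated all samples as unpaired, so their p-values ignore this pairing. No 2 replicates agreed within sampling noise (lowest chi-square per degree of freedom 21.5).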

Additional observations from a re-analysis of the deposited data

Results flagged for a closer look

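Of 56 groups of values checked (8 genes in 7 groups), 4 had a sample far from the others, and 2.80 were expected at 1 in 20. In hydrogels around cores labelled KO, replicate 6 was highest for Adamts1, with 359 CPM where the other 5 lay between 206 and 256 CPM, and for Adamts5, with 328 CPM where they lay between 155 and 214 CPM. Adamts7 was at 93.1 CPM in replicate 4 of the cores labelled KO beside progenitors and at 54.8 to 59.5 CPM in the others. Adamts12 was at 16.9 CPM in replicate 1 of the WT cell-free cores and at 31.3 to 33.2 CPM in the others.

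For Adamts15 the differences between same-numbered cores had opposite signs with and without progenitors. Neither genotype difference was called, and the numbers were not taken as pairs for these samples. In cores beside progenitors its groups did not overlap, so any pairing puts the labelled KO core below the WT core. In same-numbered pairs Adamts15 was lower there by -1.21 to -0.16 in log2 CPM. In cell-free cores it was higher in every pair, by 0.0052 to 1.04. The interaction of genotype and progenitors was tested with edgeR over all genes and had an adjusted p of 0.985. Opposite signs were sought for every member, in these and in other pairs of comparisons. How many such cases arise by chance was not worked out.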

How the results depend on the processing

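Of 1512 results for single members under other settings, 1418 kept their direction and their side of the threshold, 49 passed it newly, 5 no longer passed and 40 changed sign. The number of members called stayed within 1.5 times in both hydrogel-core comparisons, in cell-free cores and for the interaction under every setting. In hydrogels by genotype it was 1 without the fold threshold (Adamts1) and 1 with the replicate block (Adamts15). In WT cores it was 2 at an unadjusted p. Between genotypes beside progenitors it was 3 without the fold threshold. In cores labelled KO it was 1 (Adamts1) with DESeq2, no low-count filter, an unadjusted p, the replicate block or all 5 core groups in the fit. With macrophages against cell-free it was 1 with DESeq2 or the replicate block and 2 at an unadjusted p or with the title code as a block. With macrophages against progenitors it was 1 with no filter, an unadjusted p, the replicate block, the title code or the mouse's sex as a block, and 2 with library totals alone. The sex of a core's mouse was inferred from the summed CPM of Y-linked genes, at most 14.6 in 10 cores and at least 226 in the other 10. The sex block and library totals were chosen after seeing the data. The replicate block changed no other call. In WT cores with and without progenitors and in both genotype comparisons of cores, the numbers were not taken as pairs. Not every correlation there passed 0.1 (lowest -0.0086, -0.20 and 0.039). With 4 pairs each, this cannot show that pairing was absent. By the Y-linked sums, same-numbered WT cores matched in sex across the cell-free, progenitor and macrophage groups. WT and labelled KO cores of replicate 2 or 3 did not match in sex. The cause of the changes in calls was not tested.

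Leaving out 1 sample gave 0 to 1 members called in hydrogels by genotype, in cores labelled KO and with macrophages against cell-free, 0 to 2 in WT cores and between genotypes beside progenitors, 0 to 3 with macrophages against progenitors, and 6 to 7 between hydrogel and core. Log2 fold changes near 0 changed sign. With library totals alone they were -0.081 for Adamts5 in WT cores, 0.049 for Adamts2 with macrophages against cell-free and 0.0034 for Adamts2 in the interaction. With the sex block they were 0.0077 for Adamts7 in cores labelled KO and -0.035 for Adamts1 with macrophages against cell-free. With 1 sample left out, Adamts5 ran from -0.13 to 0.11 in WT cores. Between genotypes beside progenitors Adamts2 ran from -0.20 to 0.064 and Adamts12 from -0.29 to 0.13, and in cell-free cores Adamts2 ran from -0.12 to 0.087, Adamts4 from -0.075 to 0.20 and Adamts9 from -0.15 to 0.29. In cores labelled KO Adamts7 ran from -0.25 to 0.16 and Adamts12 from -0.31 to 0.10. With macrophages against cell-free Adamts1 ran from -0.25 to 0.27, Adamts12 from -0.16 to 0.19 and Adamts2 from -0.094 to 0.057, and against progenitors Adamts9 ran from -0.082 to 0.30. In the interaction Adamts2 ran from -0.18 to 0.081 and Adamts7 from -0.035 to 0.37.

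Over all genes, calls in cores labelled KO ranged from 69 to 502 between settings and from 4 to 497 with 1 sample left out, against 69 as reported, and in WT cores from 207 to 774 and from 49 to 640, against 423. With library totals alone the median log2 fold change of all genes went from -0.018 to -0.12 in WT cores, from 0.005 to 0.12 with macrophages against cell-free and from 0.011 to 0.20 against progenitors, and the share of calls that were higher from 57.7% to 28.3% in WT cores and from 49.0% to 82.3% with macrophages against progenitors. Without the filter that share went from 42.3% to 30.5% in the WT hydrogel-core comparison. The lowest count of a member in a sample was 92, for Adamts15.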
